A study of Mus musculus with 5 samples.

Results

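The genes described here are the transcribed Zfp genes of the mouse, protein-coding genes named Zfp followed by a number, which encode mostly C2H2 zinc-finger proteins. Of 342 such genes in the mm9 gene annotation (Zfp36 and Zfp42 were left out), 338 had a longest transcript of at least 2000 bp. Of these, 252 had at least 50 run-on reads on the coding strand between 1000 bp after the start and the gene end in embryonic stem (ES) cells or fibroblasts, and they are the members of the set. They are 252 of 22885 gene models of that length in the genome and carry 250 symbols, since Zfp664 and Zfp708 have 2 models each. The body reads chose the members, so the body levels below are a description and no test was made of them. Of the 252 genes, 243 reached 50 reads in ES cells, 188 in fibroblasts and 179 in both. The values just inside the limit were Zfp345 with 50 reads in ES cells and 0 in fibroblasts, and Zfp595 with 50 and 38. Just outside were Zfp579 with 49 and 36 and Zfp707 with 48 and 17.

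Global run-on sequencing (GRO-seq) restarts RNA polymerases in isolated nuclei with a labelled nucleotide, Br-UTP, and sequences the RNA they add, so a read marks an engaged polymerase and its strand. MESC denotes the V6.5 ES cell line from a cross of C57Bl/6(f) with 129/Sv(m), at passages 12 to 14, kept undifferentiated with LIF on irradiated feeder cells (3 samples). MEF denotes fibroblasts of the same strain at passage 2, taken from a male embryo at E13.5 and grown without LIF (2 samples). No gene was altered, and the cultures also differed in feeders, LIF and serum. The deposited reads pool the samples of each cell type into 1 read set of 8571395 (MESC) and 6571116 (MEF) reads outside the mitochondrial genome. There was therefore no replicate spread and no test between the cell types. Intervals are exact conditional 95% intervals of a ratio of 2 counts, and they cover counting error only. The 6 ES cell markers summed to 3474 body reads in MESC and 42 in MEF, where 3 of them were at 0. The 6 fibroblast markers, which feeder cells also express, summed to 341 and 11874, with 1 to 158 reads a gene in MESC. The 3 macrophage markers found summed to 12 and 187, the 3 neural markers to 907 and 140, and no marker of either list was at 0. The part of these other cells in the Zfp reads was not tested, and the labels do not say how the samples of a cell type were prepared apart.

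C2H2 zinc-finger genes are the largest family of transcription factor genes in mammals. Each finger folds around a zinc ion and reads a few bases of DNA, and fingers in a row are joined by a short conserved linker. Many of the proteins also carry a KRAB box, which recruits the co-repressor TRIM28 and through it the histone methyltransferase SETDB1 and HP1 proteins; in ES cells this silences endogenous retroviruses and protects imprinted regions. KRAB zinc-finger genes arose by repeated duplication and lie in clusters of similar copies, so a short read can match several of them.

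A KRAB A box was found in the annotated protein of 131 members and was not found in 121. Fingers were counted by a sequence pattern of set spacing, so fingers of other spacing are not in the counts given here. The members had 0 to 36 fingers with a median of 10, the highest count being that of Zfp142. The median was 12 with and 7 without a KRAB box, and in 8 members the pattern found no finger. By position, 111 members lay in 25 clusters of at least 3 Zfp genes with neighbouring starts at most 250000 bp apart. Of the KRAB genes 86 of 131 were clustered, and of the others 25 of 121. Chromosome 7 held 57 members, chromosome 17 held 31, chromosome 13 held 21, chromosome 8 held 19 and chromosome 9 held 18.

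The following pieces of coding sequence are shown as examples of stretches through which a read of 1 Zfp gene also matches others. Only part of the reads shared at up to 2 mismatches lay in exons of both genes: 643 of 2867 in MESC and 268 of 1242 in MEF. Each is the 35-base place of 1 read in the mm9 genome, read 5′ to 3′ on the coding strand. In the first group the capitals mark the bases that encode the conserved linker between fingers, and in the second a conserved stretch of the KRAB A box.
Zfp386 (chr12:117298660-117298694, plus strand): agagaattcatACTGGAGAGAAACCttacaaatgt
Zfp820 (chr17:21956086-21956120, minus strand): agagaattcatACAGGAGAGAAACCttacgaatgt
Zfp942 (chr17:22065714-22065748, minus strand): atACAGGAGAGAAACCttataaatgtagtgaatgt
Zfp959 (chr17:56037309-56037343, plus strand): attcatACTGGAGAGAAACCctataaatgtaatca
Zfp937 (chr2:150062446-150062480, plus strand): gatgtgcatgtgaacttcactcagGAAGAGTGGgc
Zfp54 (chr17:21567199-21567233, plus strand): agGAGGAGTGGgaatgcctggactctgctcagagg
Zfp51 (chr17:21598651-21598685, plus strand): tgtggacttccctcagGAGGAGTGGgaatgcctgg
With at most 2 mismatches, the linker piece of Zfp386 was found in 56 other zinc-finger genes, that of Zfp820 in 31, that of Zfp942 in 27 and that of Zfp959 in 25. The KRAB piece of Zfp937 was found in 38 others, that of Zfp54 in 9 and that of Zfp51 in 3. Exact copies were fewer: 1 other gene for Zfp386, 0 for Zfp820 and 4 for Zfp942.

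Such sharing touched few reads over the set as a whole. Of the members' body reads, 2.64% in MESC and 2.05% in MEF had a 35-base start that occurs elsewhere in the genome exactly. Over the 223 members without another gene on the same strand it was 2.46% and 2.15%. Over all gene bodies measured, also without such a gene, it was 2.36% and 2.13%, and over the protein-coding ones 1.97% and 1.58%. Among the 223, those with a KRAB box had 5.6% in MESC and 5.15% in MEF, and those without 0.953% and 0.885%. With at most 2 mismatches, 4.04% of all the members' body reads in MESC and 2.96% in MEF also matched another zinc-finger gene. The sharing was concentrated in few genes: 20 members had at least 20% of such reads and 6 had at least 50%. All 20 had a KRAB box and 13 lay in a cluster. For Zfp960, 517 of the 523 reads of both cell types (98.9%) matched Zfp97. Zfp747 shared 91.4% of its reads, mostly with Zfp764, and Zfp937 shared 77.8%, mostly with Zfp442. Zfp600 shared 97.5%, Zfp345 82% and Zfp738 64%. The deposited lists do not say how a read with several equal matches was placed, so the levels of these 6 genes are uncertain.

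**Figure D1:**
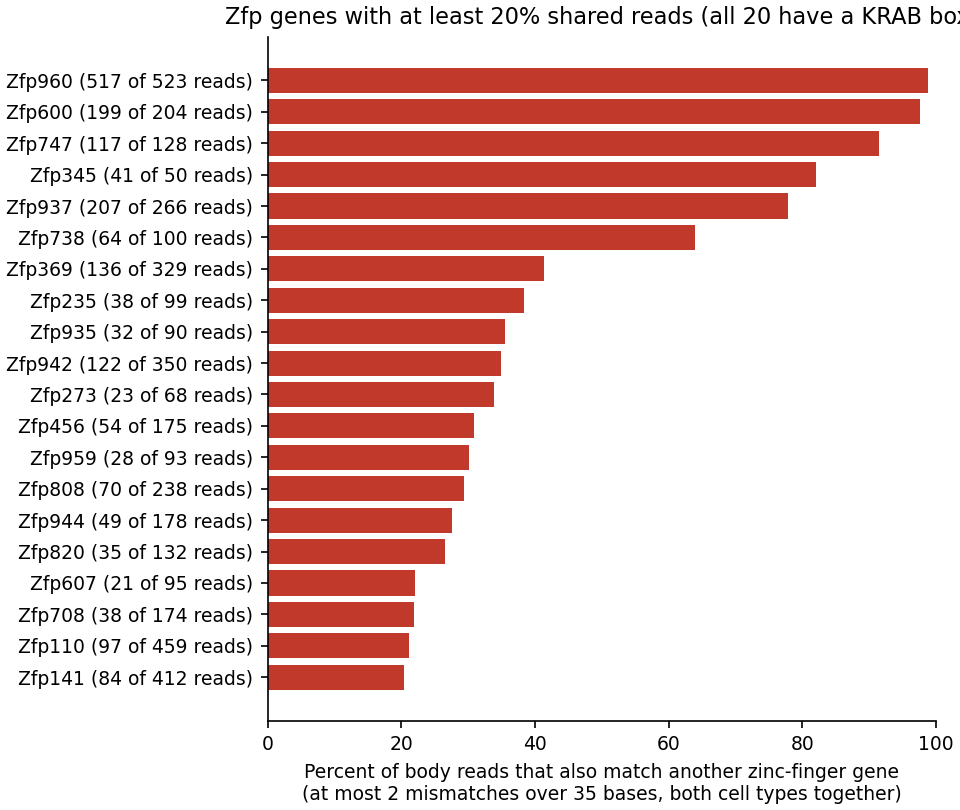
Horizontal bars give the percent of body reads, both cell types together, that also match another zinc-finger gene with at most 2 mismatches over 35 bases, for the 20 members at 20% or above. Zfp960, Zfp600 and Zfp747 are above 90%, and all bars belong to genes with a KRAB box.

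The Zfp genes were transcribed at similar density in both cell types. Body density is given as RPKM, the reads per kilobase of body scaled to the size of the read set. Of the 252 members, 29 have another gene on the same strand over the counted part; the remaining 223 were compared. Their median was 1.22 RPKM in MESC (0.0121 to 8.96) and 0.938 RPKM in MEF (0 to 5.41), and over all 9488 gene bodies measured it was 0.975 and 0.832 RPKM. The highest in MESC were Zfp768 at 8.96 RPKM (4.02 in MEF) and Zfp207, a spindle assembly protein, at 6.87 RPKM (4.32 in MEF). The median log2 ratio of MESC over MEF was 0.45 for the 223 and 0.30 for all gene bodies, and the middle of the members ran from 0.02 to 0.92 (quartiles). Within 2-fold were 74.4% of the members and 66.6% of all bodies. A ratio of 4 or more towards MESC was found in 11 members, where 8% of all bodies passed, and towards MEF in 5, where 5.5% passed. Since all bodies together lean to MESC by 0.30, the split depends on the scaling. With the median of all bodies set to 0 it was 5 higher in MESC and 6 in MEF, where 6.52% and 6.97% of all bodies passed. With edgeR's TMM factors it was 5 and 5, where 6.61% and 6.87% passed.

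**Figure D2:**
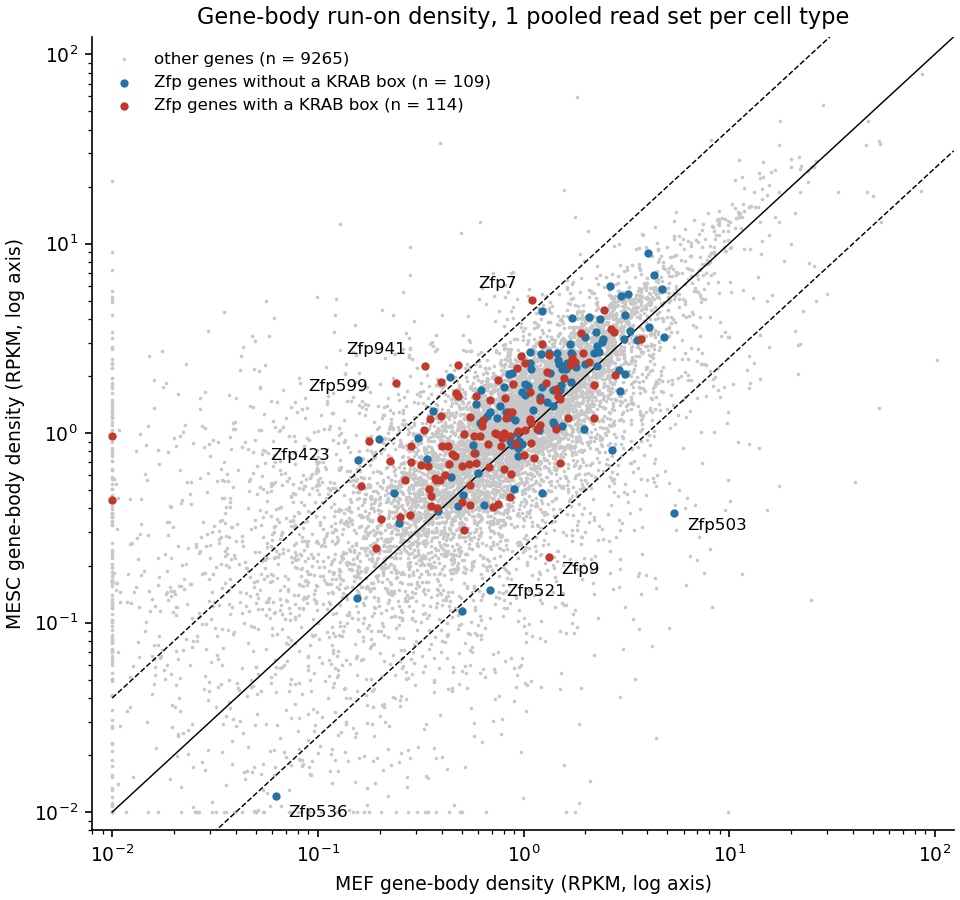
Each point is a gene with its body density in MEF (x) and MESC (y), in RPKM on log axes, values under 0.01 drawn at 0.01. Red points are the 114 Zfp genes with a KRAB box, blue the 109 without and grey all other genes measured; the solid line is equality and the dashed lines 4-fold. Most Zfp genes lie between the dashed lines, with Zfp503 farthest to the MEF side.

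Among the members higher in MESC, Zfp599, a KRAB gene with 10 fingers on chromosome 9, had 181 body reads in MESC and 18 in MEF, 7.71-fold higher (4.74 to 13.3). Zfp941, a KRAB gene on chromosome 7, had 266 and 30 reads, 6.8-fold higher (4.65 to 10.3). Zfp229, in the large chromosome 17 cluster, had 228 and 37, 4.72-fold (3.33 to 6.88), and Zfp7 on chromosome 15 had 523 and 88, 4.56-fold (3.63 to 5.78). For Zfp599 and Zfp941 the whole interval lay above 4, and for Zfp229 and Zfp7 it did not. Zfp612 had 73 and 11 reads, 5.09-fold (2.68 to 10.6). Zfp459, in the chromosome 13 cluster, had 60 MESC reads and 0 MEF reads, 15.3-fold against a floor of 3 reads, with an exact interval from 12.1 upwards. In introns alone its log2 value against that floor was 2.28 in place of 3.94, and 13.3% of its reads match other zinc-finger genes. Zfp345, with 50 and 0 reads, rests on shared reads (above). Zfp473, Zfp239 and Zfp958 were the other 3 besides Zfp423, with log2 ratios of 2.24, 2.17 and 2.26. Zfp473 starts 19 bp from Vrk3, which runs the other way. With the median of all bodies set to 0, the 5 that stayed at 4-fold were Zfp459, Zfp345, Zfp599, Zfp941 and Zfp612.

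The 5 members higher in MEF were mostly genes without a KRAB box. Zfp503, a developmental regulator of the striatum, had 15 body reads in MESC and 165 in MEF, 14.3-fold higher in MEF (8.45 to 26.2). Zfp9, the KRAB gene among them, had 31 and 143 reads, 6.02-fold (4.06 to 9.18). Zfp521 had 364 and 1285 reads, 4.6-fold (4.1 to 5.19). Zfp449 on the X chromosome had 18 and 60 reads, 4.35-fold (2.53 to 7.83). Zfp536 had 30 and 119 reads over a long gene. In MESC that is 0.104 reads per kb, under the 0.187 per kb and strand found between genes, and in MEF it is 0.411 against 0.11. Its antisense strand had 59 reads in MESC, more than the sense strand, and 10 in MEF.

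Zfp423 and Zfp521 are close relatives, in each of which the pattern found 27 fingers. Their proteins bind EBF factors and act in fat, bone and neural precursors. Zfp423 had 1837 reads in MESC and 306 in MEF, 4.6-fold higher in MESC (4.08 to 5.21), which is the opposite side from Zfp521. Only 0.467% of the reads of Zfp423 and 0.364% of those of Zfp521 matched another zinc-finger gene. Body density in MESC was 0.722 RPKM for Zfp423 and 0.149 RPKM for Zfp521, and in MEF 0.157 and 0.687 RPKM. Both are long genes with few reads at the start: the promoter windows held 1 and 0 reads in Zfp423 and 1 and 3 in Zfp521. With the median of all bodies set to 0, the log2 ratio of Zfp423 was 1.90, under 4-fold, and that of Zfp521 was -2.50. With the 35-base MESC reads alone Zfp423 was also under 4-fold, at 1.89.

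A list of 25 genes with known roles held 22 members, of which 21 had no gene on the same strand. Of these, 17 were within 2-fold. Zfp459 and Zfp423 (above) passed 4-fold towards MESC, as did 8% of all gene bodies, and Zfp521 and Zfp503 passed it towards MEF, as did 5.5%. Of the KRAB repressors other than Zfp459, Zfp57, which keeps methylation at imprinted regions, had 248 reads in MESC and 154 in MEF, 1.23-fold (1.01 to 1.52). Zfp809, which silences murine leukaemia proviruses, had 296 and 140, 1.62-fold (1.32 to 2). Zfp568, which represses a placental Igf2 transcript, had 1219 and 525, 1.78-fold (1.61 to 1.98). All 3 were thus under 2-fold higher in MESC. Of the activators and GC-box binding factors without KRAB, Zfp143 had 340 and 184 reads, 1.42-fold (1.18 to 1.7). Zfp281 had 129 and 111, with MEF 1.12-fold higher (0.863 to 1.46), and Zfp148 had 1462 and 1114, 1.01-fold (0.93 to 1.09). The intervals of Zfp281 and Zfp148 include 1. Zfp462, with 33 fingers, had the most reads of the list, 2589 and 1596, 1.24-fold (1.17 to 1.32). These folds depend on the scaling, since all bodies lean to MESC by 0.30. With the median of all bodies set to 0, the log2 ratio was 0.01 for Zfp57, 0.40 for Zfp809 and 0.53 for Zfp568. It was 0.20 for Zfp143, -0.47 for Zfp281, -0.29 for Zfp148 and 0.02 for Zfp462.

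Members named for a finger but known for other work were also near even. Zfp207 had 1264 and 609 reads, 1.59-fold (1.44 to 1.76). Zfp598, the ubiquitin ligase that senses stalled ribosomes, had 201 and 100, 1.54-fold (1.21 to 1.98). Zfp622, which matures the large ribosomal subunit, had 265 and 141, 1.44-fold (1.17 to 1.78). Zfp451, a SUMO ligase, had 845 and 596, 1.09-fold (0.978 to 1.21). Among developmental genes, Zfp467, which promotes fat cell formation, had 60 and 71 reads, and Zfp703, a relative of Zfp503, had 55 and 64. MEF was 1.54-fold (1.08 to 2.21) and 1.52-fold (1.04 to 2.22) higher at these. Zfp516, a brown fat regulator, had 725 and 1192 reads, but another annotated gene shares its strand. Of the list, 3 genes were under 50 reads and are no members: Zfp296 with 43 and 1, Zfp932 with 42 and 15, and Zfp819 with 29 and 0.

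The genes through which KRAB proteins act were transcribed in both cell types. Of a list of 17 co-repressor genes 15 could be measured, and 0 of them were 4-fold apart in either direction; their median log2 ratio was 0.57 against 0.30 over all gene bodies, of which 1281 of 9488 were at least 4-fold apart. Chd3, left out for a gene on the same strand, had 109 reads in MESC and 306 in MEF. Trim28 had 600 body reads in MESC and 237 in MEF, 1.94-fold, Setdb1 626 and 281, 1.71-fold, and Cbx1, which encodes an HP1 protein, 831 and 252, 2.53-fold. Of the related Zscan and Zkscan genes 12 were measured, with a median of 0.48. Only Zscan10, an ES cell factor, passed 4-fold among these 12, with 409 reads in MESC and 0 in MEF.

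Clusters differed in their middle value. Over the 99 clustered members measured, the median log2 ratio was 0.52, with 5 past 4-fold towards MESC and 0 towards MEF. Over the 124 outside clusters it was 0.42, with 6 and 5. Counted in introns alone, the medians were 0.33 and 0.38, so this order turned. Over all gene bodies 8% passed 4-fold towards MESC and 5.5% towards MEF. The clustered counts depend on the scaling. With the median of all bodies set to 0, Zfp229 and Zfp7, among the 5, had log2 ratios of 1.94 and 1.89, under 4-fold. In that scaling the lowest clustered member, at -1.72 in the main scaling, passed 4-fold towards MEF. It raised the count over all members from 5 to 6, so the 0 towards MEF did not hold there. Zfp345, among the 5 as well, rests on shared reads (82%). The chromosome 13 cluster (chr13:67139530-67927937) held 12 members, all with a KRAB box. The 6 without an overlapping gene had a median of 1.15 and ran from 0.40 to 3.94, so each was above the median of all gene bodies. In this cluster Zfp748 had 150 reads in MESC and 78 in MEF, 1.47-fold (1.11 to 1.96). The median share of reads matching other zinc-finger genes was 14.6% there. The chromosome 17 cluster (chr17:21520712-22593656) also held 12 members, of which 11 were measured, from -0.88 to 2.24 with a median of 0.52. Its extremes were Zfp229 (above) and Zfp948, with 213 and 300 reads, 1.84-fold higher in MEF (1.54 to 2.2). Zfp760, at 140 and 64 reads, and Zfp942, at 253 and 97, lay between. Neighbours in this cluster thus lay on both sides of even.

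On chromosome 7, the cluster at chr7:30553571-30954746 held 12 members, with a median of 0.60 over 11 and 7 of these above 0. It contains Zfp568 (above), Zfp566, a KRAB gene at 230 and 74 reads, 2.38-fold (1.83 to 3.14), and Zfp146, a gene without KRAB at 144 and 111 reads, 1.01-fold higher in MEF (0.778 to 1.3). A second chromosome 7 cluster, chr7:134376575-134759311, had a median of 1.16 over 7 members, and the chromosome 6 cluster (chr6:47769265-48036592) had -0.07 over 6. Members of a cluster share sequence and neighbours and are not replicates of each other.

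**Figure D3:**
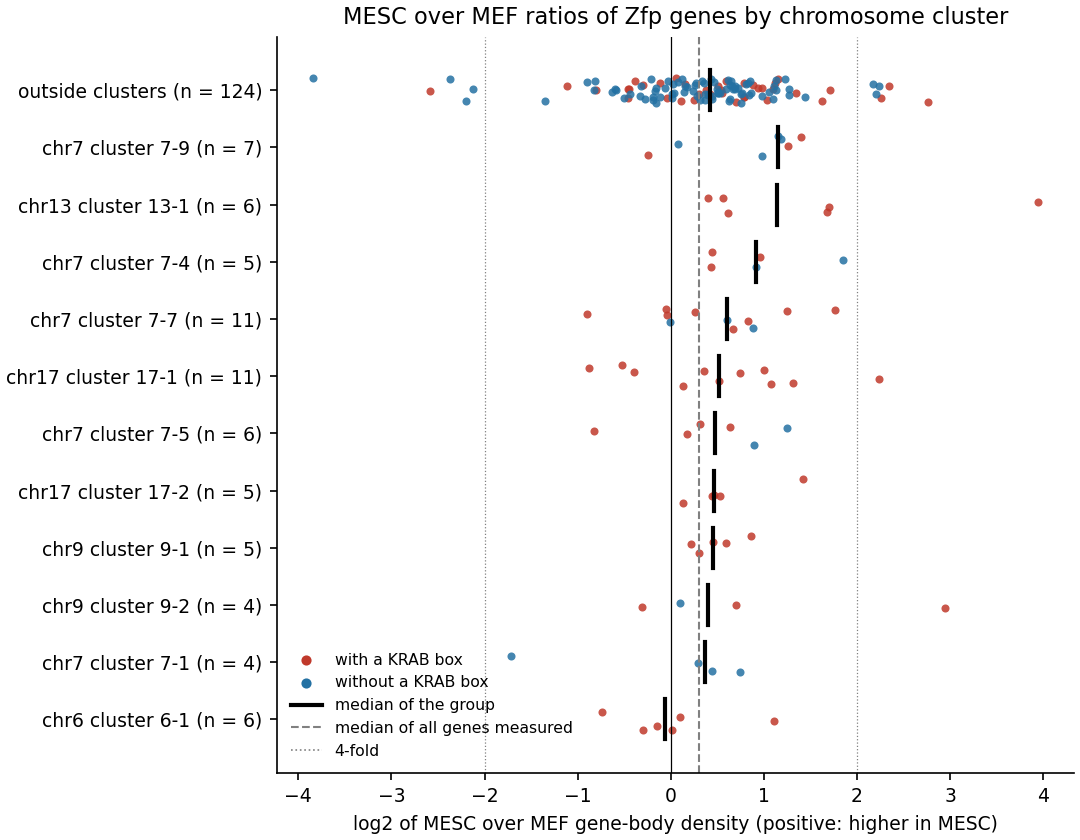
Each point is a member, placed by the log2 ratio of MESC over MEF body density and grouped by cluster (those with at least 4 members measured), with members outside clusters at the top; red points have a KRAB box and blue points do not. Black bars are group medians, the dashed line the median of all genes (0.30) and the dotted lines 4-fold. The chromosome 13 points all lie right of the dashed line, and the chromosome 6 median lies at -0.07.

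The promoter window, from 50 bp before to 300 bp after the annotated start, played no part in choosing the members. In 103 of the members without a same-strand gene it held at least 20 reads in 1 cell type. Their median log2 ratio was 0.50, against 0.32 over the 4350 promoters measured. With each position counted once it was 0.14 against 0.08, and with the median of all promoters set to 0 it was 0.19. At least 4-fold higher in MESC were 6 (6.07% of all promoters) and higher in MEF 1 (3.01%). Zfp9 had 19 promoter reads in MESC and 87 in MEF, 5.97-fold higher in MEF (3.61 to 10.4), close to its 6.02-fold in the body. Zfp612 had 21 and 1 promoter reads, with an interval of 2.59 to 666 for the ratio, and Zfp345 had 24 and 0, 6.13-fold against a floor of 3 reads, with an interval from 4.61 upwards. These 3 were also at least 4-fold apart in the body, in the same direction, out of 7 body calls whose promoter could be measured. Of the body reads of Zfp345, however, 82% are shared, and sharing with other zinc-finger genes was not measured in the promoter window. Zfp871 had 32 and 2 promoter reads (interval 3.13 to 106), yet 323 and 182 body reads, a log2 ratio of 0.44. Zfp41 had 30 and 4 promoter reads, 5.75-fold (2.03 to 22.5), and a body log2 ratio of 1.44. These calls rest on few reads: with at least 50 promoter reads 0 promoters were 4-fold higher in MESC, and with each position counted once 2 were higher in MESC and 0 in MEF.

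The upstream sequences of 4 members with different cell-type ratios are shown to set their promoters beside these values. Each is the 200 bases before the annotated start in mm9, on the gene's strand, and lies outside annotated exons. Capitals mark matches, on either strand, to the GC box bound by SP1 (GGGCGG), the CCAAT box bound by NF-Y (CCAAT), or the ETS motif (CCGGAAG).
Zfp599 (chr9:22064340-22064539, minus strand): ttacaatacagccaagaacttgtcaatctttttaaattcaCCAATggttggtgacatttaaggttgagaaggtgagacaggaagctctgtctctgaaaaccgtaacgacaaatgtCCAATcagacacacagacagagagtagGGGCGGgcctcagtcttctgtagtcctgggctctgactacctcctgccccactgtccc
Zfp941 (chr7:148008078-148008277, minus strand): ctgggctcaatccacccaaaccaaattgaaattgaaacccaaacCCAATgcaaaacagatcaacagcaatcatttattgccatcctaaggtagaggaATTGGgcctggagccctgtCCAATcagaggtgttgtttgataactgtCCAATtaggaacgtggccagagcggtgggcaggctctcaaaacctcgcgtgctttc
Zfp612 (chr8:112603464-112603663, plus strand): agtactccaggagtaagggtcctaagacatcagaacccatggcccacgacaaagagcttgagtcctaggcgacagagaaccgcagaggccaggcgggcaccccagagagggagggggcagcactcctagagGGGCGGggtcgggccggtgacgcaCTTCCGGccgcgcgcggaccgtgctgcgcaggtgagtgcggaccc
Zfp948 (chr17:21703810-21704009, plus strand): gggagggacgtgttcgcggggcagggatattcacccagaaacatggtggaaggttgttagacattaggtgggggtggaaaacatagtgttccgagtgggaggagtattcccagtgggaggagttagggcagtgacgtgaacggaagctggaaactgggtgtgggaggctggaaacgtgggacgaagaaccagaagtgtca
Zfp941 held 4 CCAAT boxes and Zfp948 held 0 of the motifs searched. From 250 bases before to 50 after the start, the GC box was found at 45.2% of the 252 members, 34.4% with and 57% without a KRAB box, and at 65.6% of all gene bodies measured. The CCAAT box was found at 37.3% of members and 37.8% of all, and the ETS motif at 23.8% and 18.2%. The YY1 motif AANATGGC was found at 12.7% and 8.54%, the NRF1 motif at 13.1% and 13.8%, the TATA motif TATAAA at 7.94% and 6.28%, and the CRE TGACGTCA at 3.97% and 3.29%. The median GC content was 52.8% with and 61.3% without a KRAB box, and 61.7% over all bodies. A match describes letters and not binding.

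The pausing index is the density in the promoter window over the density in the body. A gene was called paused in a read set when the index was at least 2 and a one-sided Fisher's exact test of the 2 windows, Benjamini-Hochberg adjusted over all active genes, gave an adjusted p under 0.05. The body reads of this test also chose the members, and the result speaks only of each read set. Of the active members 132 of 222 in MESC (59.5%) and 132 of 221 in MEF (59.7%) were called. The background was 62% and 57% of active genes with at least 50 body reads, and 56.4% and 52.6% of all active genes. In both cell types 118 of the 220 members active in both were called, and the share over all genes was not counted for this. Among members the index had a median of 3.61 (MESC) and 4.22 (MEF), against 4.08 and 3.95 over the same background. The values depend on the start used: at the annotated start with the most reads, 159 members were called in each cell type. The medians there were 5.29 and 6.07. All genes were not counted at that start, so the background above cannot be set beside these values.

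Among the members, the KRAB genes had the higher indices. In MESC 83 of 114 KRAB members (72.8%) were called and 49 of 108 others (45.4%), and in MEF 81 of 112 (72.3%) and 51 of 109 (46.8%). Median indices were 6.05 and 2.10 in MESC and 7.65 and 2.33 in MEF. Both windows differed: in MESC the median promoter count was 21 reads with and 10 without a KRAB box, while median body density was 1.02 and 1.70 RPKM. In MEF the promoter counts were closer, 11.5 and 9 reads, and the body densities 0.746 and 1.23 RPKM. An index of at least 10 was found in 39 KRAB members and 15 others in MESC, where 24.9% of all genes reached it. At the start with the most reads the shares in MESC were 81.6% and 61.1%, and with each position counted once 72.8% and 42.6%. With only reads found once in the genome the shares in MESC were 72.8% and 45.4%, with median indices of 5.88 and 2.12. Among clustered members 74.7% with and 41.7% without a KRAB box were called in MESC, and outside clusters 69.2% and 46.4%. The difference between the groups itself was not tested, nor was the part of the lower GC content of KRAB promoters in it. High indices were also found in the related Zscan and Zkscan genes: 10 of 12 active ones were called in MESC and 9 of 11 in MEF. Their median indices were 5.95 and 11.8.

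**Figure D4:**
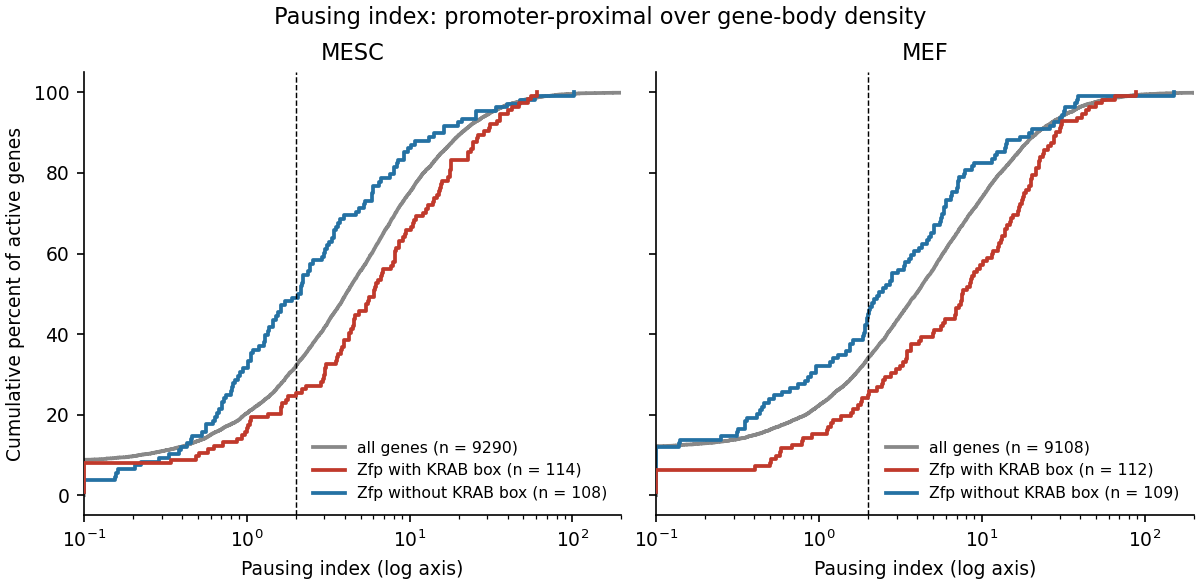
Curves give the cumulative percent of active genes (y) up to each pausing index (x, log axis, values under 0.1 drawn at 0.1), for MESC at left and MEF at right. The red curve of KRAB members lies to the right of the grey curve of all genes over most of the range and the blue curve of the other members to its left; the dashed line marks an index of 2.

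The strongest promoter signal belonged to Zfp622 in MESC and Zfp11 in MEF. Zfp11, a gene with 21 fingers and no KRAB box, had 267 promoter reads and 108 body reads in MESC, and 199 and 54 in MEF. Its index of 102 and 152 was the highest of the named members in both, and it was named for this value. Zfp622 had 281 promoter reads in MESC and 123 in MEF, with indices of 39.6 and 32.6. Zfp566 had 237 and 116, with 35.7 and 54.4, and the KRAB genes Zfp938 and Zfp54 reached 60.9 and 46.7 in MESC and 41.4 and 87.8 in MEF. Zfp146 had more promoter reads in MEF, 168, than in MESC, 143, and Zfp60 had 113 in MESC and 127 in MEF. At the other end, Zfp704 had 646 and 573 body reads with 0 promoter reads in both, and Zfp420 had 391 and 163 body reads with 0. Zfp217, an oncogene amplified in breast cancer, had 7 and 0 promoter reads beside 645 and 351 body reads. In MESC 12 active members (5.41%), and in MEF 20 (9.05%), had 0 reads in the window of the annotated start. Over all active genes with at least 50 body reads the shares were higher, 8.46% and 12%.

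Upstream of the start, reads on the opposite strand come from polymerases that leave the promoter in the other direction. To keep neighbouring genes out, members with another start within 2000 bp were not counted. At least 5 antisense reads in the 500 bp upstream were found at 125 of 180 active members in MESC (69.4%) and 101 of 179 in MEF (56.4%). Over all genes chosen the same way it was 61% and 47.2%. In MESC the share was 62.1% with a KRAB box and 77.6% without, and in MEF 45.2% and 68.6%. The antisense window of 500 bp is longer than the sense promoter window, from 50 bp before to 300 bp after the annotated start. Raw counts in these windows were compared, at the start of the longest transcript alone. More antisense than sense reads were found at 54.1% (MESC) and 50% (MEF) of the members without a KRAB box. Of those with one it was 27.4% and 25.8%. Over all members it was 40% and 37.4%, and over all genes chosen the same way 39.3% and 33%. The difference between members with and without a KRAB box was not tested. MEF has fewer reads, so its lower shares cannot be read as less antisense transcription.

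**Figure D5:**
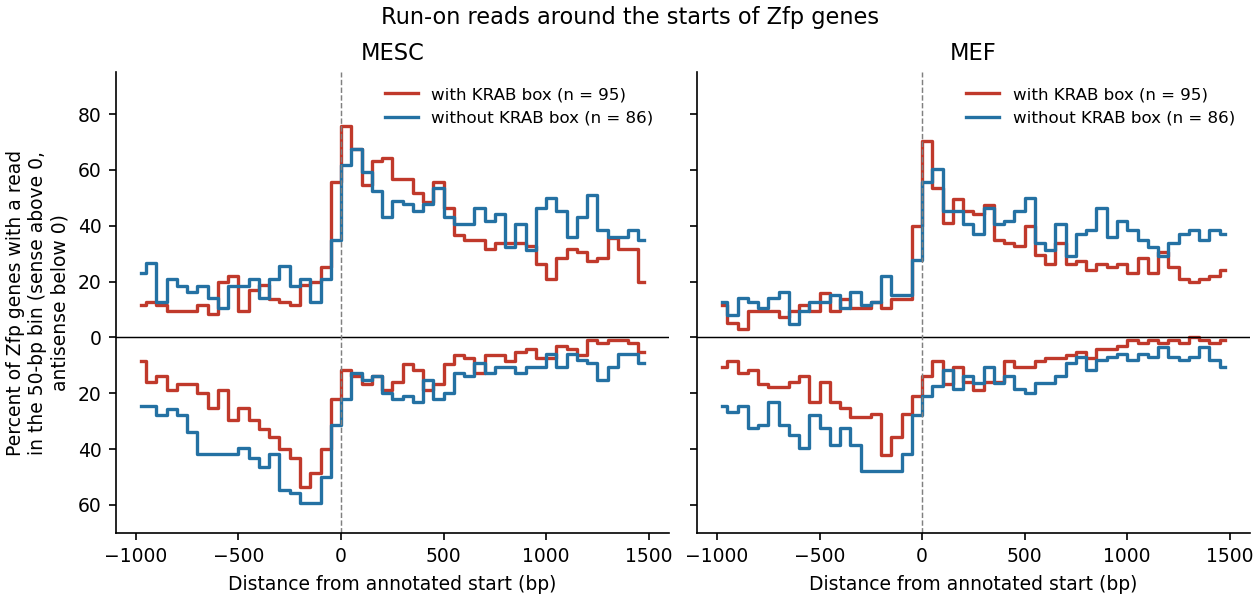
Lines give the percent of members with at least 1 read in each 50-bp bin (y; sense above 0, antisense below 0) by distance from the annotated start in bp (x), for the 95 KRAB members (red) and 86 others (blue) with no other start within 2000 bp. In MESC at left the sense peak reaches 75.8% of KRAB members and 67.4% of the others, and the antisense peak, upstream of the start, 53.7% and 59.3%; MEF at right has the same shape at lower levels.

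Of single members without a near start, Zfp384 had 132 upstream antisense reads in MESC and 73 in MEF beside 2 sense promoter reads in each. Zfp623 had 120 and 78 antisense beside 8 and 5 sense reads, and Zfp553 97 and 121 beside 10 and 5. In these 3 the antisense strand, counted over the longer window, held the larger count in both cell types. The highest count, 211 in MESC and 172 in MEF, was at Zfp668, but Zfp646 starts 32 bp away in that direction, and the 176 and 108 reads at Zfp189 likewise face Mrpl50, 83 bp away. Antisense reads over the body were mostly few, with a median of 2.65% of the body's reads in MESC and 2% in MEF. Zfp202 had 394 antisense body reads in MESC and 0 in MEF, beside 85 and 110 sense reads. Zfp710 had 175 and 280. Zfp420 had 335 and 218, where Zfp27 is annotated on the other strand, and Zfp335 had 160 and 173, opposite Pcif1.

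In KRAB zinc-finger genes the finger array is usually encoded by the last coding exon. The density of reads in the terminal exon was compared with that in the rest of the body, in members with a terminal exon of at least 1000 bp. The median ratio was 1.70 over 168 members in MESC and 1.31 over 131 in MEF, against 1.29 and 1.08 over all genes measured. It was above 1 in 129 of the 168 (76.8%) and 81 of the 131 (61.8%), where all genes gave 65.6% and 55.1%. With a KRAB box the medians were 1.87 and 1.51, and without 1.24 and 1.04. Zfp566 had the highest ratio, 10.9 in MESC and 9.47 in MEF, with 129 of its 230 MESC reads in the terminal exon. Zfp40 had 9.08 in MESC, with 81 of 119 reads there, and Zfp763 had 5.88. Zfp438, Zfp608 and Zfp940 were lowest in MESC at 0, 0.117 and 0.162. With only reads and positions that occur once in the genome, the medians over members were 1.63 and 1.24. This leaves out exact copies only, and finger sequence repeated with mismatches stays in, so the part of repeated sequence was not tested.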

How the data were processed

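The deposited lists give 1 read a line with chromosome, position and strand. Per the file headers, the lists hold all MESC libraries and MEF libraries 1 and 2. Per the series' design text, the authors aligned with Eland to mm9 and removed reads over RepeatMasker rRNA-like regions; for reads with several matches the treatment is not given in the sources used here. Column 5 of the deposited lists is a read count per line. The lists pool 3 MESC and 2 MEF samples; edgeR's quasi-likelihood test, planned for separate samples, could therefore not be run. Depth was 8616592 (MESC) and 6583644 (MEF) reads. In a sample of these reads, 94.4% and 95.5% matched the genome at the listed position with at most 2 mismatches over 35 bases. Reads were counted by 5-prime end over GENCODE models on mm9 (longest transcript; body from 1000 bp after the start; promoter -50 to 300). Counts under 3 were set to 3 for ratios, and genes needed 50 body or 20 promoter reads. A gene was active with 20 promoter reads or a body count above the intergenic level. Fingers were found by pattern and KRAB boxes with a profile (pyhmmer 0.12.3, E 1e-05). Matches to 664 zinc-finger loci used bwa 0.7.19-r1273. Intervals and Fisher's exact tests used scipy 1.17.1, and TMM factors edgeR 4.0.16. Scripts were tested on simulated data. Members, lists and alternatives were chosen with earlier results of these data known, and the split by KRAB box after these values were seen. Named members were those with the most extreme ratios (at least 100 reads, at most 20% of body positions found elsewhere), promoter, pausing, antisense, terminal exon or sharing values, the largest clusters and a list of known roles. Zfp958, Zfp612, Zfp449, Zfp41, Zfp871, Zfp768 and Zfp142 were named after their values were seen.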

Additional observations from a re-analysis of the deposited data

How the results depend on the processing

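The files pool the samples of a cell type, so leaving out a replicate was not possible. No paired analysis was possible because the columns carry no sample. Main values were 11 members past 4-fold towards MESC and 5 towards MEF, with a median log2 ratio of 0.45 (clustered 0.52, others 0.42). Scaling by the median ratio gave 5 higher in MESC (6.52% of all bodies) and medians of 0.15, 0.22 and 0.13. TMM gave 5 (6.61% of all bodies) and 0.17, 0.24 and 0.15. Leaving ribosomal-DNA-like loci out of the total gave 0.37. The 35-base MESC reads alone gave 6 higher in MESC (5.53% of all bodies), with 0.36 and, for clustered members, 0.40. Introns alone gave 0.37 and 0.33. At least 200 body reads gave 4 and 1 called, where 5.56% and 6.01% of all bodies passed, and 103 members in place of 252. At least 3 reads gave 18 higher in MESC, where 8.56% of all bodies passed. For promoters, at least 50 reads gave 0 higher in MESC, and counting each position once gave 2 and 0. The start with the most reads gave median pausing indices of 5.29 (MESC) and 6.07 (MEF), and 3.19 and 4.31 without KRAB; counts of paused members stayed within 1.5 times under all alternatives run. Shared reads were 4.04% and 2.96% when counted against zinc-finger genes alone with 2 mismatches, a measure that differs from the exact genome-wide match in both choices. Among the named members followed through the alternatives run, no called ratio turned sign. Zfp612, Zfp958 and Zfp449, also called, were not followed one by one. The cause of these differences was not tested. The KRAB alternatives were chosen after seeing the data. With 1 pooled read set a cell type, cell type and library cannot be told apart.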
